A study of Homo sapiens with 3 samples.

Results

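The genes described here are 10 human genes of lipid peroxide defence and iron handling, out of 60609 genes listed in the count tables. They were taken by name from the pathway, with no threshold on a value but with earlier results of these data known: GPX4, SLC7A11, SLC3A2, AIFM2, ACSL4, LPCAT3, TFRC, FTH1, FTL and NCOA4. All 10 were found once by symbol, and all 10 passed the filters on low counts. RNA sequencing was done on NCI-H209, an established small cell lung cancer line with neuroendocrine features, carrying a doxycycline-inducible lentiviral hairpin in Tet-pLKO-puro. The 3 libraries were sh490 and sh1362, each with a different hairpin against the Src-family kinase YES1, and shGFP, whose hairpin is against GFP, a gene that human cells lack. Per the labels, every library had the same line, the same vector type and the same protocol of 1 µg/mL doxycycline every 2 days. An untreated or hairpin-free library was not analysed here, and whether cells were cloned after infection is not given in the sources used here.

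Ferroptosis is a form of cell death driven by iron and by peroxides of polyunsaturated phospholipids in membranes. Cells build such lipids with ACSL4 and LPCAT3, reduce their peroxides with GPX4 and glutathione, and stop the radical chain with AIFM2, also called FSP1, and reduced coenzyme Q. Glutathione needs cysteine, which enters as cystine through the exchanger formed by SLC7A11 and SLC3A2. Iron enters bound to transferrin through TFRC, is stored in ferritin shells of FTH1 and FTL, and is freed when NCOA4 carries ferritin to lysosomes. In small cell lung cancer lines, cells with neuroendocrine features have been described as less sensitive to ferroptosis than those without.

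The messages of TFRC, FTH1 and FTL carry iron-responsive elements, short hairpins in the untranslated region that bind the iron regulatory proteins ACO1 and IREB2 when iron is low. Binding at the start of a ferritin message blocks its translation, and binding behind the coding part of TFRC stabilises that message, so of these genes TFRC is the one whose RNA level is known to follow iron. The elements found in the transcripts of the GENCODE version 29 annotation (GRCh38) are shown because they set apart the genes under this control. The bulged c and the loop are in capitals, and all lie in exons.
FTH1, 5′ untranslated region, exon 1, chr11:61967574-61967602, minus strand: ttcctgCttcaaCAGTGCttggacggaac
FTL, 5′ untranslated region, exon 1, chr19:48965335-48965363, plus strand: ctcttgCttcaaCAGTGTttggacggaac
TFRC, 3′ untranslated region, exon 19, chr3:196050979-196051007, minus strand: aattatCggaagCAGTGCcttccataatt
TFRC, same exon, chr3:196050575-196050603: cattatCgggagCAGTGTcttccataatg
TFRC, same exon, chr3:196050510-196050538: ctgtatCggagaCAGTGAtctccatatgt
TFRC, same exon, chr3:196050463-196050491: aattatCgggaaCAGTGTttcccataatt
The search asked for C, any 5 bases, CAGTG, a base other than G, and 5 bases that pair with the first 5, with G-T pairs allowed, on the transcript strand. Such a match was present in the 5′ untranslated region of 13 of 19004 genes (0.0684%) and in the 3′ untranslated region of 81 of 19125 (0.424%). TFRC, with 4, was the only gene with more than 3 matches in its 3′ untranslated region. These are counts of matches to this strict pattern, and an element that departs from it would not be counted. The other 7 genes had no match in the transcript searched, which says only that these letters were not in it.

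The other sequence feature that sets a member apart is in GPX4, a selenoprotein. Its active-site selenocysteine is written by a TGA that would otherwise stop translation, in capitals here: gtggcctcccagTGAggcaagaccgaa (chr19:1105391-1105417, plus strand, exon 3). It is codon 73 of 198 in the main GENCODE transcript, the final stop included. Reading it needs a dedicated machinery, part of the selenoprotein list given with the pathway lists.

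Total counts were 4899006 in shGFP, the shallowest library, 7791747 in sh490 and 7421552 in sh1362. The 10 genes took 0.161% to 0.190% of them. YES1 had 163, 216 and 1465 counts in sh490, sh1362 and shGFP, so the targeted gene was low where the labels say so. The neuroendocrine markers NEUROD1, INSM1, CHGA, CHGB, SYP, NCAM1, DLL3 and GRP had reads in every library. Their levels differed, here in CPM (counts scaled to the library total). INSM1 had 202.8 CPM in sh490, 366.0 in sh1362 and 108.0 in shGFP. CHGB had 72.1, 180.4 and 107.8 in that order, and GRP 41.2, 28.3 and 35.5. The shGFP library stood apart in red cell genes, where the list of 10 had 725.9 CPM, nearly all of it HBB, HBA1 and HBA2. The same list had 19.1 CPM in sh490 and 20.3 in sh1362. ALAS2 of that list had 13 counts in shGFP, 1 in sh490 and 1 in sh1362, while AHSP, EPB42 and CA1 were at 0 in all 3 libraries. White cell genes summed to 8.98 CPM in shGFP, 2.31 in sh490 and 3.23 in sh1362, fibroblast genes to 6.74 to 9.24 and endothelial genes to 5.39 to 19.6. Red cell precursors are rich in transferrin receptor and ferritin, so these sums stand beside every comparison with shGFP below, and their part in it was not tested.

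In the control library the 10 genes spanned a wide range. The plot of levels by library shows them as TPM, counts divided by gene length and scaled to the same sum in each library, so that genes can be compared. FTL, the ferritin light chain, was the highest by far at 2579 TPM, rank 21 of 19905 protein-coding genes. NCOA4, the ferritin receptor of autophagy, followed at 247.4 TPM and TFRC at 131.5. GPX4 at 103.1 TPM, SLC3A2 at 102.4 and ACSL4 at 91.8 were close together. AIFM2 had 35.2 TPM and SLC7A11 27.9, and LPCAT3 at 19.2 and FTH1 at 12.1 were lowest. Neighbours in this order had overlapping 95% Poisson intervals for GPX4 and SLC3A2, SLC3A2 and ACSL4, AIFM2 and SLC7A11, and LPCAT3 and FTH1; the other 5 neighbours were apart by more than counting error. These intervals cover counting error only, since PCR copies of a molecule cannot be recognised in these counts. They also leave out the choice of length, which here is that of all annotated exons of a gene. It was 2019 bases for GPX4, 7794 for TFRC and 9645 for SLC7A11, where the main transcripts have 919, 5111 and 9645. The order of genes with close levels therefore depends on the length used.

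**Figure D1:**
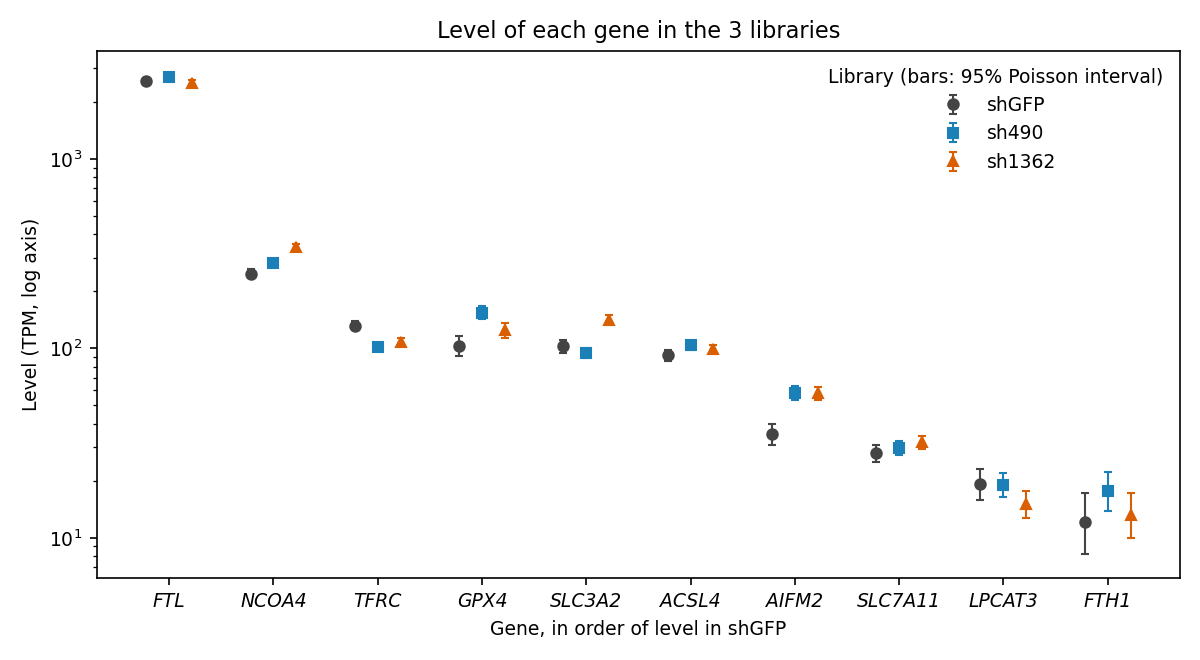
Level of each of the 10 genes (y axis, TPM, log scale) in shGFP (grey circles), sh490 (blue squares) and sh1362 (orange triangles), with 95% Poisson intervals. FTL lies near 2579 TPM in shGFP and FTH1 near 12.1, and the libraries differ far less than the genes do.

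The order was nearly the same with the hairpins. FTL was again the highest (2704 TPM in sh490, 2530 in sh1362) and NCOA4 next (280.9 and 343.9), and AIFM2, SLC7A11, LPCAT3 and FTH1 kept places 7 to 10 in all 3 libraries. Places 3 to 6 were shared out differently among TFRC, GPX4, SLC3A2 and ACSL4. TFRC held place 3 in shGFP and place 5 with each hairpin, GPX4 place 3 in sh490, and SLC3A2 place 3 in sh1362.

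The low values of FTH1 and LPCAT3 need care, because these genes share much of their sequence with others. FTH1, the ferritin heavy chain with the ferroxidase site, had 31 counts in shGFP, 72 in sh490 and 55 in sh1362, against 2872 to 4797 for FTL. Of its annotated exon bases 63.2% overlap exons of BEST1, a chloride channel gene on the other strand. Of the 50-base words in its main transcript 78.7% also occur in transcripts of 17 other genes, 14 of them FTH1 pseudogenes. For LPCAT3, which puts polyunsaturated chains into phospholipids, 66.0% of exon bases overlap EMG1, a ribosome assembly gene on the other strand with 517 to 714 counts. Of its words 53.0% occur in transcripts of 7 other genes, none of them listed as an LPCAT3 pseudogene. Words were matched on both strands, so exons that overlap another gene at the same place count in these shares too.

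Counting as recorded left out reads that fit several places or overlap several genes. The 25 listed FTH1 pseudogenes held 17 counts in shGFP, 9 in sh490 and 20 in sh1362 together. GPX4, SLC3A2 and ACSL4 shared at most 1.19% of exon bases and no word, and TFRC and AIFM2 at most 1.00% of exon bases and 0.0938% of words. FTL shared 18.3% of its words with 2 pseudogenes, NCOA4 8.55%, and SLC7A11 9.29%. In all, 6.52% of listed genes overlap others over more than 60% of their exon bases. Dividing by unshared exon bases only, which was tried after these values had been seen, LPCAT3 had 53.5 TPM in shGFP and FTH1 31.3, and LPCAT3 moved to place 7. AIFM2 then held place 8, FTH1 place 9 and SLC7A11, at 29.1 TPM, place 10. How many reads were lost to copies was not tested, so the FTH1 level is a count of what could be placed and not a measure of the gene's abundance against FTL.

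**Figure D2:**
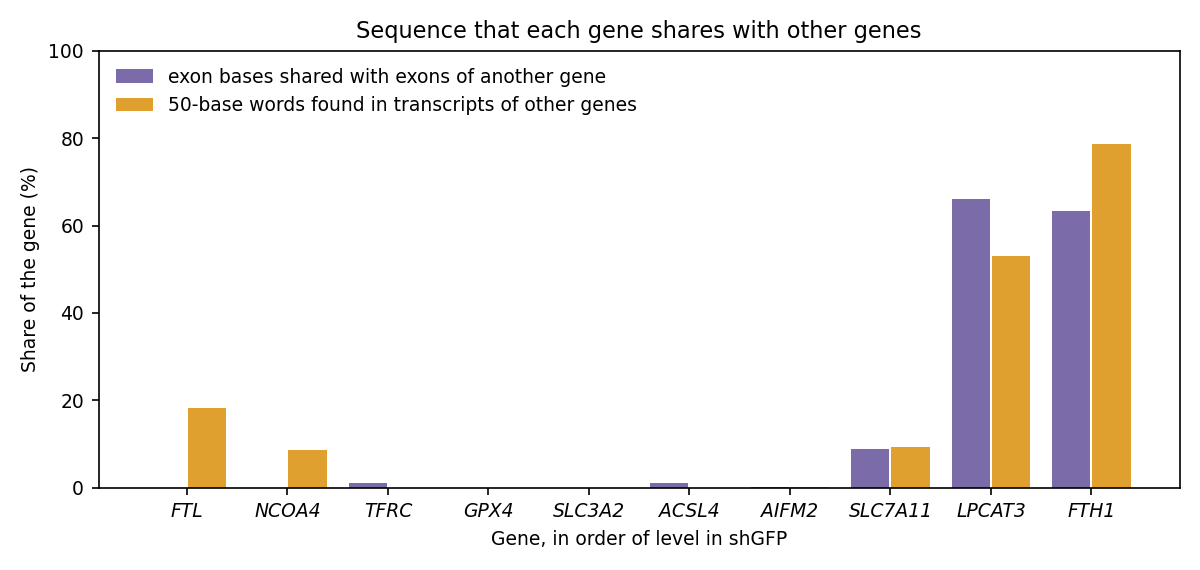
Share of each gene's exon bases that overlap exons of another gene (purple bars) and share of its 50-base transcript words that also occur, on either strand, in transcripts of other genes (yellow bars), in percent. LPCAT3 (66.0% and 53.0%) and FTH1 (63.2% and 78.7%) stand apart from the other 8 genes, which lie below 20%.

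To see whether silencing YES1 went with a change in these genes, both hairpin libraries were compared with shGFP. None of the 10 passed. In the quasi-likelihood test of edgeR, with Benjamini-Hochberg adjustment over all genes, 0 of the 10 were higher and 0 lower, with adjusted p from 0.986 to 0.998. Over all 15708 genes tested, 0.0% passed as higher and 0.0255% as lower, which are the 3 globins named above and YES1. AIFM2 alone of the 10 had an unadjusted p below 0.05, as did 684 of all genes (4.35%, or 2.27% counting only those higher). DESeq2 and limma-voom also called 0 of the 10. On simulated counts the edgeR test called 80% of genes changed 4-fold but 10% of those changed 2-fold. A gene that was not called may therefore still have changed.

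The spread in that test comes from the 2 hairpins alone (1 residual degree of freedom, moderated over genes), and shGFP is assumed to vary as they do. The labels name no separate cultures, and the p-values therefore reflect only how these libraries differ, which may be technical. Each hairpin is therefore also given by its own ratio to shGFP, with a 95% counting interval that leaves out every other source of spread. Both ratios share the shGFP library. No member was 2-fold or more from shGFP with either hairpin. Of 11638 genes averaging at least 5 CPM, 1.39% were at least 2-fold higher and 1.42% lower with sh490, and 3.3% and 6.0% with sh1362.

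**Figure D3:**
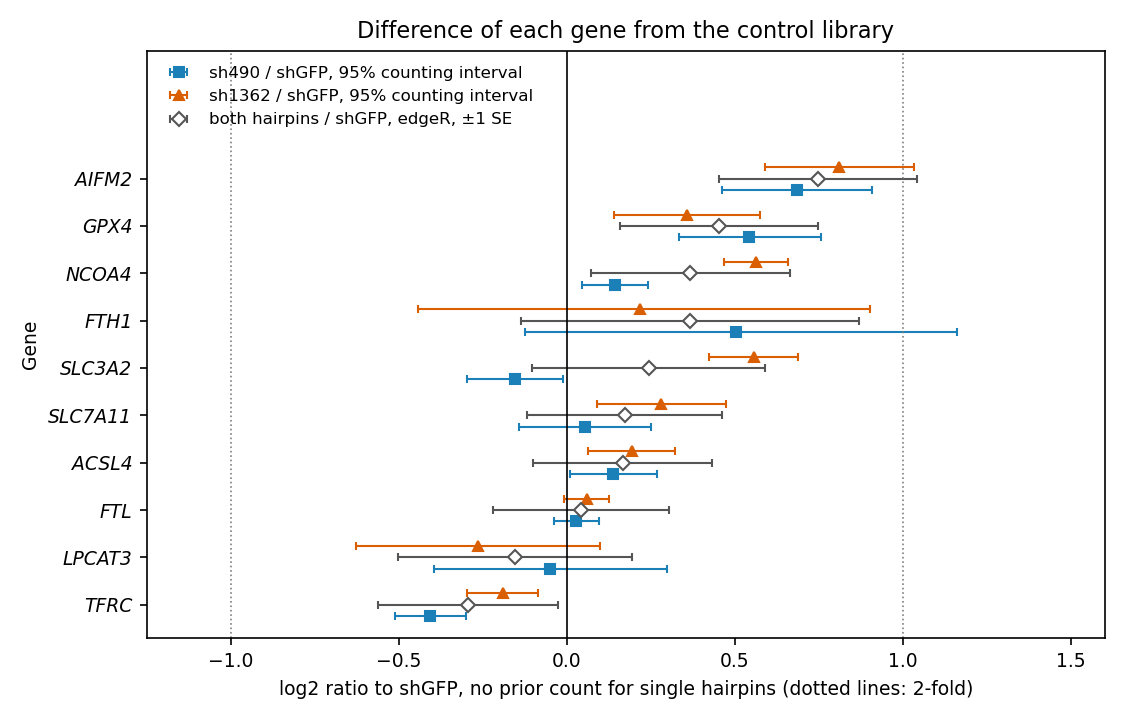
log2 ratio of each gene to shGFP with sh490 (blue squares) and sh1362 (orange triangles), bars giving 95% counting intervals, and the edgeR log2 fold of both hairpins (white diamonds, bars of 1 standard error). AIFM2 lies farthest above 0 and TFRC farthest below, SLC3A2 lies on opposite sides, and every point stays within the 2-fold lines.

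Gene positions below are those of the count tables (GRCh38, whole gene). The defence enzymes AIFM2 and GPX4 lay above the control with both hairpins. AIFM2 (ENSG00000042286.15, chr10:70098223-70132934, minus strand), the oxidoreductase that regenerates radical-trapping coenzyme Q and vitamin K at membranes, had 76.9 normalised CPM in sh490, 83.9 in sh1362 and 47.9 in shGFP (608, 618 and 231 counts). The hairpin libraries were close to each other and the control below both. The ratio to shGFP was 1.61 (1.38 to 1.88) with sh490 and 1.75 (1.50 to 2.05) with sh1362. Its edgeR log2 fold was 0.75 (standard error 0.29), the largest among the 10, with unadjusted p 0.0345 and adjusted p 0.986. That fold lay above those of 89.8% of all genes tested. GPX4 (ENSG00000167468.17, chr19:1103926-1106791, plus strand), which reduces phospholipid peroxides with glutathione, had 80.3 normalised CPM in sh490, 70.6 in sh1362 and 55.1 in shGFP (635, 520 and 266 counts). Here too both hairpin libraries were above the control, sh490 more so. The ratios were 1.46 (1.26 to 1.69) and 1.28 (1.10 to 1.49), and the edgeR log2 fold was 0.45 (standard error 0.29) (adjusted p 0.986).

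The subunits of the cystine exchanger had different patterns over the libraries. SLC7A11 (ENSG00000151012.13, chr4:138164097-138242349, minus strand), its transport chain, had 74.0 normalised CPM in sh490, 86.6 in sh1362 and 71.3 in shGFP (585, 638 and 344 counts). Only sh1362 was above the control by more than counting error, at a ratio of 1.21 (1.06 to 1.39), against 1.04 (0.907 to 1.19) with sh490. SLC3A2 (ENSG00000168003.16, chr11:62856102-62888875, plus strand), the heavy chain that brings this and other amino acid transporters to the surface, had 126.3 normalised CPM in sh490, 206.5 in sh1362 and 140.6 in shGFP (999, 1521 and 678 counts). It was highest in sh1362 and slightly below the control in sh490, with ratios of 1.47 (1.34 to 1.61) and 0.899 (0.815 to 0.992). SLC3A2 was the only one of the 10 on opposite sides of shGFP, and 31.8% of all genes were. Their edgeR log2 folds were 0.17 (standard error 0.29) for SLC7A11 and 0.24 (0.35) for SLC3A2 (both adjusted p 0.986).

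For the lipid enzymes the libraries lay close together. ACSL4 (ENSG00000068366.20, chrX:109624244-109733403, minus strand), which activates arachidonic and adrenic acid for membranes, had 175.2 normalised CPM in sh490, 182.0 in sh1362 and 159.2 in shGFP (1385, 1340 and 768 counts). Both hairpins were a little above the control, with ratios of 1.10 (1.01 to 1.20) and 1.14 (1.05 to 1.25) and an edgeR log2 fold of 0.17 (standard error 0.27) (adjusted p 0.986). LPCAT3 (ENSG00000111684.11, chr12:6976185-7018477, minus strand) had 23.0 normalised CPM in sh490, 19.8 in sh1362 and 23.8 in shGFP (182, 146 and 115 counts). Its ratios of 0.966 (0.760 to 1.23) and 0.832 (0.647 to 1.07) had intervals that include 1, and its edgeR log2 fold was -0.15 (standard error 0.35) (adjusted p 0.99).

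Among the iron genes, TFRC was the one below the control with both hairpins. TFRC (ENSG00000072274.13, chr3:196027183-196082096, minus strand) had 204.9 normalised CPM in sh490, 237.8 in sh1362 and 271.6 in shGFP (1620, 1751 and 1310 counts). The control was the highest of the 3 and sh490 the lowest. The ratios were 0.754 (0.701 to 0.812) and 0.876 (0.815 to 0.941), and the edgeR log2 fold was -0.30 (standard error 0.27) (adjusted p 0.986). The globin messages were high in the same library in which TFRC was high, and their part in this difference was not tested. Of the iron regulatory proteins that act on the elements of TFRC, IREB2 had log2 ratios of -0.03 with sh490 and 0.25 with sh1362, and ACO1 of 0.22 and 0.05. These are RNA levels, and the binding of the proteins was not measured.

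The ferritin messages had very different counts, and neither was apart from the control by more than counting error. FTL (ENSG00000087086.15, chr19:48965309-48966879, plus strand) had 606.7 normalised CPM in sh490, 620.0 in sh1362 and 595.4 in shGFP (4797, 4566 and 2872 counts). The 3 libraries were nearly level, with ratios of 1.02 (0.973 to 1.07) and 1.04 (0.994 to 1.09) that include 1 within narrow intervals, and an edgeR log2 fold of 0.04 (standard error 0.26) (adjusted p 0.998). FTH1 (ENSG00000167996.16, chr11:61959718-61967634, minus strand) had 9.11 normalised CPM in sh490, 7.47 in sh1362 and 6.43 in shGFP. Its ratios of 1.42 (0.918 to 2.23) and 1.16 (0.735 to 1.87) had the widest intervals of the 10 and include 1, and its edgeR log2 fold was 0.37 (standard error 0.50) (adjusted p 0.986). NCOA4 (ENSG00000266412.5, chr10:46005088-46030714, minus strand), which binds FTH1 and delivers ferritin for breakdown, had 295.2 normalised CPM in sh490, 394.8 in sh1362 and 267.4 in shGFP (2334, 2907 and 1290 counts). It was above the control with both hairpins, chiefly sh1362, at ratios of 1.10 (1.03 to 1.18) and 1.48 (1.38 to 1.58) and an edgeR log2 fold of 0.37 (standard error 0.30) (adjusted p 0.986).

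Counted together, 7 of the 10 lay above shGFP with both hairpins, against 33.8% of all genes, 2 below with both (TFRC and LPCAT3), against 34.5%, and 1 on opposite sides. The count of 7 includes FTL and FTH1, whose intervals include 1 with both hairpins, and SLC7A11, whose interval includes 1 with sh490. The median log2 ratio of the 10 was 0.10 with sh490 and 0.24 with sh1362, and that of all 11638 genes 0.00 and -0.01.

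**Figure D4:**
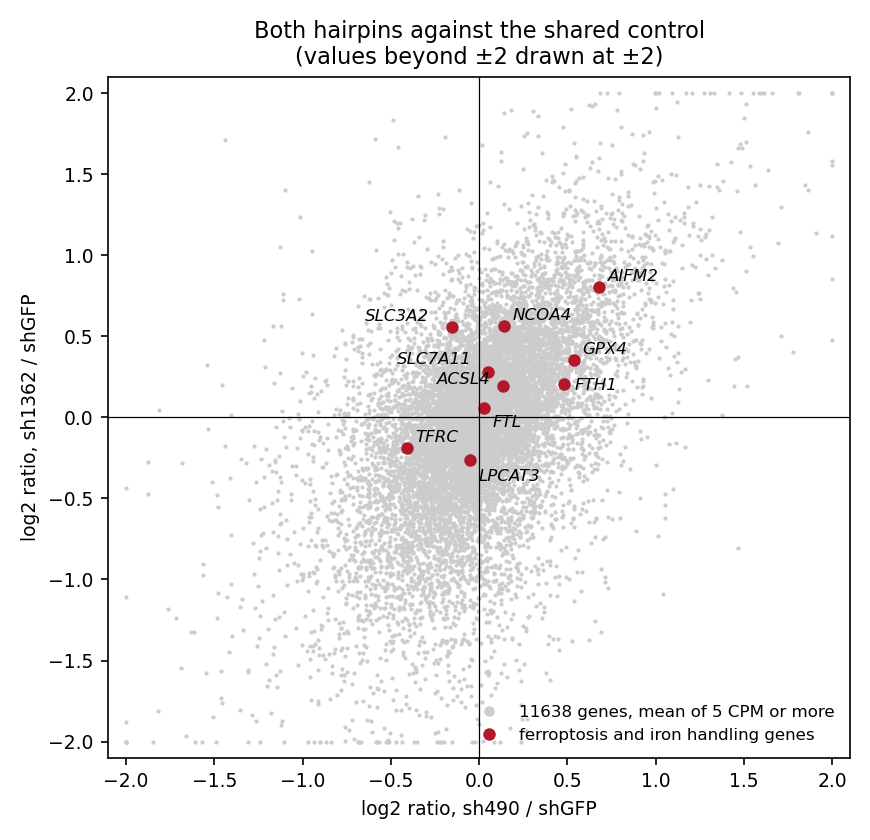
log2 ratio to shGFP with sh490 (x axis) and sh1362 (y axis) for 11638 genes (grey) and the 10 genes (red, named). Both axes share the shGFP library. AIFM2 lies at the upper right (0.68 and 0.81) within the grey cloud and SLC3A2 at the upper left (-0.15 and 0.55).

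The hairpins were also set against each other, with no test, since each is 1 library. SLC3A2 differed most among the 10, at 1.63 (1.51 to 1.77) for sh1362 over sh490, a larger difference than for 85.9% of all genes. NCOA4 followed at 1.34 (1.27 to 1.41). SLC7A11 at 1.17 (1.05 to 1.31) and TFRC at 1.16 (1.08 to 1.24) were also higher with sh1362 by more than counting error, and GPX4 was lower, at 0.879 (0.782 to 0.989). For AIFM2, ACSL4, LPCAT3, FTH1 and FTL the interval included 1. No member reached 2-fold, as 2.02% of all genes did upward and 3.88% downward. Mitochondrial transcripts took 7.78% of counts in sh1362 and 5.50% in sh490, and their part in these differences was not tested.

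Promoter sequence was searched because SLC7A11, AIFM2 and other genes of this defence are known targets of NFE2L2 (NRF2), which binds antioxidant response elements, and SLC7A11 and SLC3A2 of ATF4. Windows of 300 bases, from 250 before to 50 after a RefSeq start (GRCh38.p14), were given for 8 of the 10 genes, without SLC7A11 and FTH1. The element TGACNNNGC, on either strand, was in windows of 3 of these, AIFM2, SLC3A2 and NCOA4, and in 13.3% of 35116 windows of all genes. The members are counted by gene, with a match in any window, and the background by window, so these are unlike shares. In AIFM2 and SLC3A2 the matched 9 letters were the same, TGACTCAGC, read on the opposite strand in AIFM2, and 0.561% of all windows hold them. That longer word was looked up after the matches had been seen. The matches are in capitals, at 22 and 37 bases before the RefSeq start of the window. For SLC3A2 that start lies inside the gene span given above.
AIFM2, chr10:70132831-70132855, minus strand: gcacgagtGCTGAGTCAcgccccgc
SLC3A2, chr11:62881654-62881678, plus strand: agggtgggTGACTCAGCgtcctcct
The ATF4-type word TGATGNAA was in a window of SLC3A2 alone, and in 3.62% of all windows. A match describes letters and does not show that a factor binds.

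The wider pathway was followed in 7 lists of 83 further genes, of which 76 could be tested and 68 averaged at least 5 CPM. None passed the edgeR test. An unadjusted p below 0.05 was seen for 2 of the 76, ACSL3 and GCH1, both higher, no larger a share than the 4.35% of all genes. Of the 68, 16 lay higher with both hairpins, 27 lower with both and 25 opposite, that is 23.5% higher and 39.7% lower with both, where all genes had 33.8% and 34.5%. The median log2 ratios were -0.03 with sh490 and -0.13 with sh1362.

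**Figure D5:**
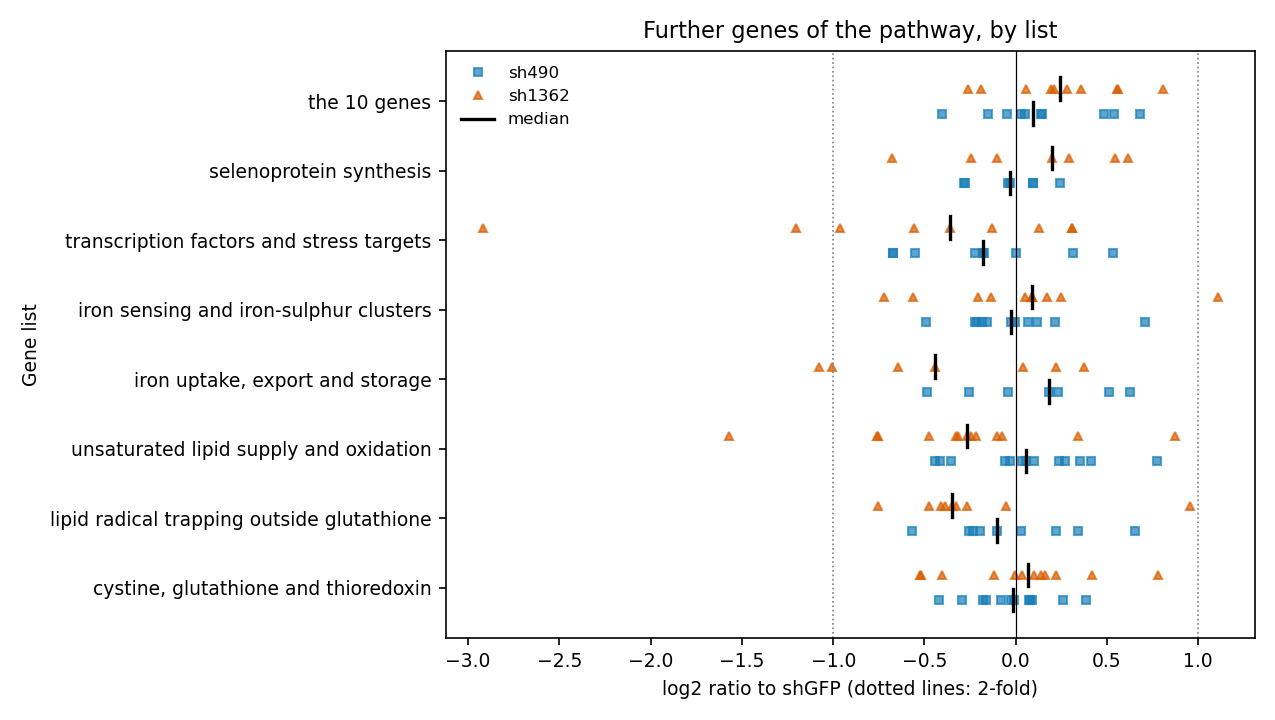
log2 ratio to shGFP of the measured genes of 7 pathway lists and of the 10 genes, with sh490 (blue squares) and sh1362 (orange triangles), black bars marking medians. The medians lie between -0.44 and 0.24, and the points beyond the 2-fold lines are all of sh1362.

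Around radical trapping, GCH1, which makes the antioxidant tetrahydrobiopterin, had 445 counts in shGFP, 1149 in sh490 and 1317 in sh1362, with log2 ratios of 0.65 and 0.95 (edgeR log2 fold 0.81, standard error 0.29, adjusted p 0.986). DHODH, which reduces coenzyme Q in mitochondria, had -0.57 and -0.39, and PDSS2, of coenzyme Q synthesis, -0.25 and -0.75. This list of 9 had 5 genes lower with both hairpins and 1, GCH1, higher with both, where all genes had 34.5% and 33.8%. Among the lipid genes, ACSL3, which activates the monounsaturated fatty acids that displace oxidisable ones, had 351 counts in shGFP, 986 in sh490 and 981 in sh1362, with log2 ratios of 0.77 and 0.87 (edgeR log2 fold 0.83, standard error 0.28, adjusted p 0.986). The desaturase FADS1 had -0.36 and -1.57, past 2-fold with sh1362 only, and the lipoxygenase ALOX5 -0.44 and -0.75. Of 13 measured lipid genes 2 lay higher with both, 5 lower with both and 6 opposite.

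In the glutathione and thioredoxin list, 3 of 12 measured genes lay higher with both hairpins, 3 lower with both and 6 opposite. Glutathione synthetase GSS had log2 ratios of 0.38 and 0.22, and thioredoxin reductase TXNRD1 -0.18 and -0.53. GCLM, the regulatory subunit of the first enzyme of glutathione synthesis, was picked after its values were seen because it lies on opposite sides of shGFP, as SLC3A2 does. It had 1312 counts in shGFP, 1609 in sh490 and 3440 in sh1362, log2 ratios of -0.42 and 0.78. Since 31.8% of all genes lay on opposite sides, no conclusion is drawn from this likeness. The catalytic partner of GCLM, GCLC, also picked afterwards, had 0.07 and 0.04.

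Of the iron lists, the importer SLC11A2 had log2 ratios of -0.25 and -1.08 and the reductase STEAP3, which acts beside TFRC in endosomes, 0.51 and 0.37. The transport and storage list had 1 gene higher with both, 1 lower with both and 5 opposite, with medians of 0.18 with sh490 and -0.44 with sh1362. In the list of iron sensing and iron-sulphur clusters, CISD1, an iron-sulphur protein of the outer mitochondrial membrane, had log2 ratios of -0.21 and -0.72, and SLC25A37, the mitochondrial iron importer, -0.19 and -0.56. That list was balanced, with 4 of 11 higher with both and 4 lower with both.

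Of the genes of selenium supply and selenoprotein synthesis, which GPX4 needs, SEPHS2, which makes selenophosphate, had log2 ratios of 0.24 and 0.54, EEFSEC, the elongation factor that acts at the codon, 0.10 and 0.62, and LRP8, a selenoprotein P receptor, -0.28 and -0.68. Of 7 measured, 3 lay higher with both and 3 lower with both. Of the regulators and stress genes, 6 of 9 lay lower with both hairpins, as did 34.5% of all genes. BACH1 is among the 6 with a log2 ratio of only -0.001 with sh490, against -0.96 with sh1362. ATF3 had -0.67 and -0.36, and the polyamine enzyme SAT1 -0.22 and -1.20. YAP1, a co-activator that promotes ferroptosis in other cells, had -0.67 and -2.92, from 64 counts in shGFP, 65 in sh490 and 11 in sh1362. None of these passed the edgeR test (adjusted p 0.986 for ATF3, SAT1 and YAP1).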

How the data were processed

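Polyadenylated RNA of NCI-H209 was sequenced in 3 libraries, 2 with hairpins against YES1 (sh490 and sh1362, taken as 2 samples of 1 group) and 1 with the control hairpin shGFP. The authors deposited raw read counts: per the file headers, featureCounts 1.6.0 summed exons by gene with the annotation of GENCODE 32, after alignment with STAR 2.6.1c to GRCh38 and FastQC 0.11.8, per the submitters' processing notes. The recorded command sets no option for strand, pairs or multiple mapping, so the defaults applied: strands were added together, and reads in several places or genes were left out. Symbols were matched for 60545 of 60609 genes.

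The test was edgeR 4.0.16 (R 4.3.3): TMM, filterByExpr, robust quasi-likelihood F test, two-sided, Benjamini-Hochberg adjusted p under 0.05 over 15708 genes. The standard error is the log2 fold divided by the square root of F. Single hairpins were compared without a test, as ratios of TMM-normalised counts with exact conditional binomial 95% intervals and as log2 ratios with a prior count of 2. TPM used the exon lengths of the tables. The script was tested on simulated data. There edgeR called 80 of 100 genes changed 4-fold, 10 of 100 changed 2-fold and 10 of 14997 left unchanged. Alternatives were DESeq2 1.42.0, limma-voom (limma 3.58.1), other scalings, filters and prior counts, and leaving out each hairpin.

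All 10 members were named, with up to 3 genes of each pathway list: those of largest mean absolute log2 ratio on the same side with both hairpins and a mean of 5 CPM or more, with any past the test, and always IREB2 and ACO1. GCLM and GCLC were added after their values had been seen. Some genes that this rule or the marker lists take are not reported here. The members and lists were chosen with earlier results of these data known. Where no read is seen, a count of 0 allows up to 3 counts, or 0.385 to 0.612 CPM.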

Additional observations from a re-analysis of the deposited data

How the results depend on the processing

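No member was called by edgeR or under any of the 7 other fits, and no gene of the pathway lists. Over those 7 fits each member kept its direction, with AIFM2 at log2 0.74 to 0.77 (adjusted p 0.766 to 1.00) and TFRC at -0.30 to -0.27 (0.916 to 1.00). Over all genes, 4 were called by edgeR, 2 by limma-voom and 58 without a filter on low counts, and the cause was not tested. With sh490 alone, SLC3A2 had a log2 ratio of -0.15 against the fold of 0.24 for both hairpins; with sh1362 alone it had 0.55. The other 9 genes kept their direction with either hairpin alone. No log2 ratio of a single hairpin changed side over 80 values under other scalings or a prior count of 0.5, the largest shift being 0.04. In shGFP, 4 of the 10 genes kept their place when ordered by CPM without length and 6 when ordered by TPM over unshared exon bases, which follows from the lengths used. No paired analysis was possible because the labels give no replicate numbers and the control has 1 library. FTH1, with 31 to 72 counts, had the widest counting intervals of the 10, and the reads lost to its shared sequence were not measured.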
